A study of Macaca mulatta with 21 samples.

Results

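RiPS1 is a rhesus macaque induced pluripotent stem cell line, and it was set against ORMES23, an embryonic stem cell line of the same species. The comparison rested on 6 of the 21 arrays of the series, 3 for each line. All probe sets with a single gene symbol that reached log2 5 or more on at least 3 of these 6 arrays were taken, whatever their difference between the lines. That gave 16882 probe sets for 10426 genes, out of 52865 probe sets on the array, of which 24969 carried a single symbol.

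RiPS1 is labelled male and was made from fetal skin fibroblasts by retroviral transduction with 4 factors, OCT4, SOX2, Klf4 and cMYC; the general protocol speaks of adult fibroblasts for the induced lines, while the label of RiPS1 itself says fetal. ORMES23 is labelled male, came from the blastocyst of an embryo fertilised in vitro, carries no transgene per the labels and is called the biparental control. Both lines grew on mitotically inactivated mouse embryonic fibroblasts in DMEM/F12 with fetal bovine serum, and RNA was taken from colonies picked by hand for undifferentiated morphology. Each line is a single derivation from a single animal or embryo, so each test speaks for these 2 lines and not for induced and embryonic lines in general. The 3 arrays of a line are labelled biological replicates A, B and C; nothing says that they came from separate derivations, and their spread is that between samples of 1 line. No passage numbers are given. For level only, the other lines were read too. The same factors were used for RiPS2, from a female donor of 10 years, and RiPS3, from a female donor of 8 years. Somatic cell nuclear transfer embryos gave the male line CRES-1 and the female line CRES-3, and the adult skin fibroblasts came from a female of 8 years.

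Reprogramming resets a differentiated cell to a pluripotent state in which POU5F1 (OCT4), SOX2 and NANOG maintain one another's transcription, while the genes of the starting cell are shut off. Imprinted genes, which are expressed from the maternal or the paternal copy alone, normally keep their marks through this change, and HOX genes and lineage regulators are normally held low. Mammalian females silence most genes on 1 X chromosome, while males have a single X, and genes that escape silencing are expressed from both female copies. Pluripotent lines can gain or lose chromosome segments in culture, which expression arrays do not measure directly.

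Within lines the arrays were not equally alike. ORMES23 B and C correlated at 0.995 over the probe sets compared, while ORMES23 A correlated with them at 0.966 and 0.962. ORMES23 A was about as close to RiPS1 A and B, at 0.961 and 0.966, and correlated at 0.9525 with RiPS1 C. RiPS1 A and B correlated at 0.986, and RiPS1 C with them at 0.975 and 0.974, close to its correlations of 0.972 with ORMES23 B and C. The endoderm regulators SOX17, FOXA2, GATA4 and GATA6 together averaged log2 8.37, 7.73 and 6.81 on RiPS1 A, B and C, against 10.03, 7.19 and 6.34 on ORMES23 A, B and C. ORMES23 A therefore stood apart with high endoderm markers, and counts are also given without it and without RiPS1 C. The Y-linked SRY probe sets read between log2 4.19 and 6.08 in all 7 lines, female ones included, so the labelled sexes could not be checked with them.

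RiPS1 and ORMES23 were close for most genes, and the larger part of the genes called at a 2-fold limit were higher in RiPS1. The mean absolute difference between the lines was log2 0.27 per gene. The SD between the arrays of a line had a median of 0.18 over probe sets. At an adjusted p under 0.05 (limma, Benjamini-Hochberg over all 16882 probe sets) with at least a 2-fold change, 288 probe sets (1.71%) rose and 98 (0.58%) fell in RiPS1, 2.29% in all. Without the fold limit, 1300 probe sets passed this adjusted p, and 3458 had an unadjusted limma p under 0.05. Read by the brightest probe set of each gene, 204 of 10426 genes (1.96%) rose and 62 (0.595%) fell, 2.55% in all. The 3 arrays of RiPS1 did not overlap with the 3 of ORMES23 for 257 of the 266 called genes, beside 2798 of all genes (26.8%).

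The count of lower probe sets depended on ORMES23 A. Without it, 338 probe sets were called higher and 181 lower. With both ORMES23 A and RiPS1 C left out, an alternative chosen after seeing the data, the counts were 460 and 270. Of the 288 and 98 probe sets called with all arrays, 235 and 84 were also called without ORMES23 A.

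**Figure D1:**
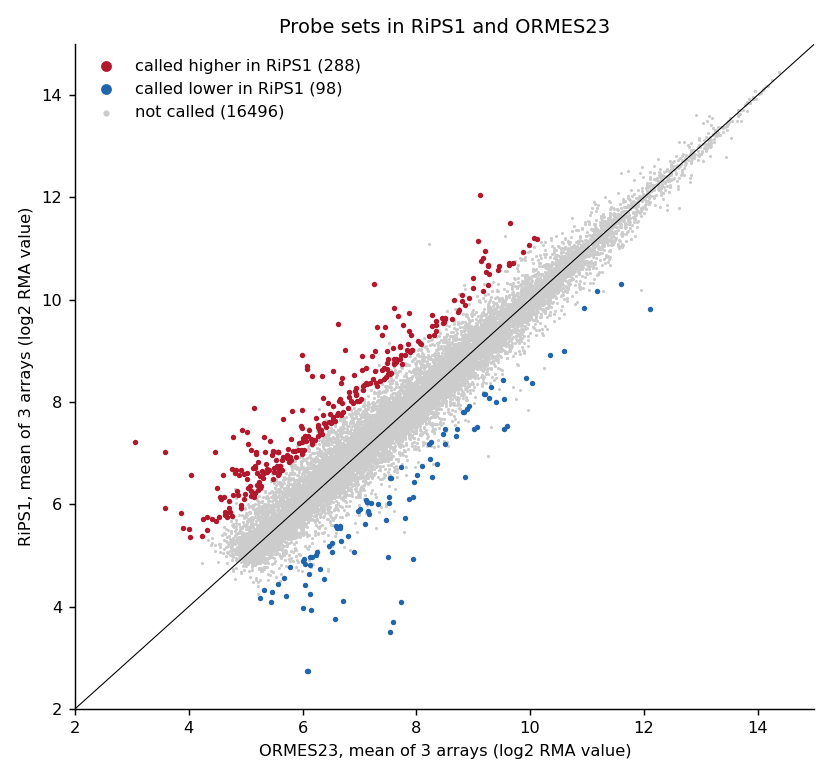
Mean level of each probe set in RiPS1 (vertical axis) and ORMES23 (horizontal axis), both as log2 RMA values over 3 arrays; the line marks equal levels. The 288 probe sets called higher in RiPS1 (red) outnumber the 98 called lower (blue), and both lie along the whole range of levels among those not called (grey).

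Signals below log2 5 are close to background. For a gene whose dimmer line averaged below that level, the fold was counted from log2 5 as a lower bound and is written "at least". This held for 35 of the 204 genes called higher and 15 of the 62 called lower. At the level filter itself, 440 probe sets with a single symbol passed on exactly 3 arrays, with a median mean level of log2 5.02, and 414 missed it with 2 arrays, at 4.91. Of the members, 92 reached log2 5 on RiPS1 arrays alone and 51 on ORMES23 arrays alone. Such probe sets entered through the line in which they were high, and they supplied 30 of the probe sets called higher and 20 of those called lower.

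The genes with the largest rises in RiPS1 are named for their size alone. EBF2, a transcription factor of adipocyte and neuronal differentiation, read log2 7.62, 7.40 and 6.03 on RiPS1 A, B and C, against 4.19, 3.25 and 3.32 on ORMES23 A, B and C. All 3 RiPS1 arrays lay above log2 5 and all 3 ORMES23 arrays below it. EBF2 was at least 4.04-fold higher in RiPS1 (log2 difference 3.43, SE 0.48, adjusted p = 0.000259). COL6A3, a chain of collagen VI, read 10.81, 10.15 and 9.96 in RiPS1, against 7.81, 7.36 and 6.59 in ORMES23. The RiPS1 level was near that of the fibroblasts, which averaged 10.50, while the other 4 pluripotent lines averaged 7.12 to 8.16. COL6A3 rose 8.31-fold (3.05, SE 0.49, adjusted p = 0.000754).

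HOXD1, an anterior homeobox gene of the HOXD cluster, read 8.66, 9.22 and 8.87 in RiPS1, against 5.86, 6.21 and 5.88 in ORMES23. It rose 7.64-fold (log2 2.93, SE 0.37, adjusted p = 0.000110). No other line came near it: the 4 other pluripotent lines averaged 5.45 to 6.94 and the fibroblasts 6.82. CRYGB, a lens crystallin, read 7.63, 8.34 and 7.66 in RiPS1, against 5.46, 5.14 and 4.83 in ORMES23, a 6.65-fold rise (log2 2.73, SE 0.29, adjusted p = 1.56e-05). The liver alcohol dehydrogenase ADH4 rose by log2 2.27 (SE 0.38, adjusted p = 0.00105), with 9.34, 8.59 and 9.13 in RiPS1 against 7.37, 6.38 and 6.50 in ORMES23. CRES-1, with a mean of 8.72, was close to RiPS1 in ADH4. MPO, the neutrophil myeloperoxidase, rose by log2 2.17 (SE 0.30, adjusted p = 0.000212), and LRRC63 by 2.02 (SE 0.29, adjusted p = 0.000340). EBF2, ADH4, MPO and LRRC63 each had 2 passing probe sets, and both were called higher.

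The rises of LCP1 and G0S2 rested on fewer arrays. LCP1, an actin-bundling protein of leukocytes, read 11.03, 11.22 and 11.21 in RiPS1, against 8.00, 9.96 and 9.29 in ORMES23, with ORMES23 A the lowest. Its difference was log2 2.07 (SE 0.58, adjusted p = 0.0354), and the adjusted p reached 0.182 when single arrays were left out in turn; the call was lost in 5 of those 6 fits. G0S2, an inhibitor of the triglyceride lipase of lipid droplets, read 10.29, 7.18 and 8.45 in RiPS1, against 5.46, 6.42 and 6.33 in ORMES23. RiPS1 A was the highest of its arrays and RiPS1 B lay closest to ORMES23; the gene lies in the chromosome 1 segment described with the genome order. The difference of log2 2.57 (SE 0.74) had an adjusted p of 0.0428, which reached 0.232 over the alternatives. XG, MXRA5 and PIR, the other genes among the 12 largest rises, lie on the X chromosome and are described with it.

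The largest fall was that of FAIM, which encodes the Fas apoptotic inhibitory molecule. It read log2 3.26, 4.04 and 3.19 in RiPS1, against 7.74, 7.65 and 7.23 in ORMES23. RiPS1 stood alone here: the other 4 pluripotent lines averaged 6.68 to 7.66 and the fibroblasts 7.01. FAIM was at least 5.82-fold lower in RiPS1 (log2 difference -4.04, SE 0.32, adjusted p = 6.12e-07), and both of its probe sets were called lower. PEG3, a paternally expressed imprinted zinc finger gene, read 4.18, 3.73 and 4.34 in RiPS1, against 8.01, 7.59 and 7.60 in ORMES23. The other pluripotent lines averaged 6.88 to 7.35, and the fibroblasts, at 4.08, were as low as RiPS1. PEG3 was at least 6.65-fold lower (-3.65, SE 0.31, adjusted p = 1.20e-06), again with both probe sets called.

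DHRS2, a short-chain dehydrogenase, read 4.84, 4.94 and 5.01 in RiPS1, against 7.64, 8.30 and 7.89 in ORMES23, and was at least 7.67-fold lower (adjusted p = 0.000333). All of its RiPS1 arrays lay at the edge of background. MT1E, a metal-binding metallothionein, stayed bright in both lines, with 9.17, 9.88 and 10.40 in RiPS1 against 12.05, 12.38 and 11.91 in ORMES23. It fell 4.93-fold (log2 -2.30, SE 0.24, adjusted p = 1.27e-05), and every other line averaged 11.17 or more. SCD5, a stearoyl-CoA desaturase, was at least 3.25-fold lower in RiPS1 (adjusted p = 0.0126), although the call was lost without ORMES23 B and without RiPS1 A (adjusted p up to 0.0584). CCKBR, a receptor for cholecystokinin and gastrin, fell 3.36-fold, and TMEM88, a membrane protein that dampens WNT signalling, 3.17-fold. In CCKBR, CRES-3 at 6.62 was near RiPS1 at 6.53, and the remaining pluripotent lines averaged 7.33 to 7.48. Its call was lost with only the 6 arrays in the fit (limma adjusted p = 0.0599). In TMEM88, CRES-3 at 8.63 and RiPS3 at 8.58 were near RiPS1 at 8.36, while CRES-1 and RiPS2 averaged 9.61 and 9.48. RFESD and NXPH2, a neurexophilin, were under log2 5 in RiPS1 and were at least 2.18-fold and 2.60-fold lower. FAIM, PEG3, SCD5, RFESD, NXPH2 and ST6GAL2 reached log2 5 on ORMES23 arrays alone. These genes entered the comparison through the line in which they were high.

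UBD and GATA3 fell less evenly. UBD, the ubiquitin-like modifier FAT10, read 4.95, 5.10 and 4.87 in RiPS1, against 5.11, 8.62 and 8.79 in ORMES23. Only ORMES23 B and C were high, while ORMES23 A lay beside the RiPS1 arrays, and CRES-1 averaged 8.36 with the remaining pluripotent lines under 5. The difference of log2 -2.54 (SE 0.68, adjusted p = 0.0280) lost its call without ORMES23 B, without ORMES23 C, and without any single RiPS1 array (adjusted p up to 0.174). ST6GAL2, a sialyltransferase, was the reverse of FAIM in its distribution over lines. It read 3.92, 3.58 and 4.44 in RiPS1, against 6.17, 6.24 and 5.59 in ORMES23, and the other pluripotent lines, at 3.48 to 4.33, were as low as RiPS1.

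**Figure D2:**
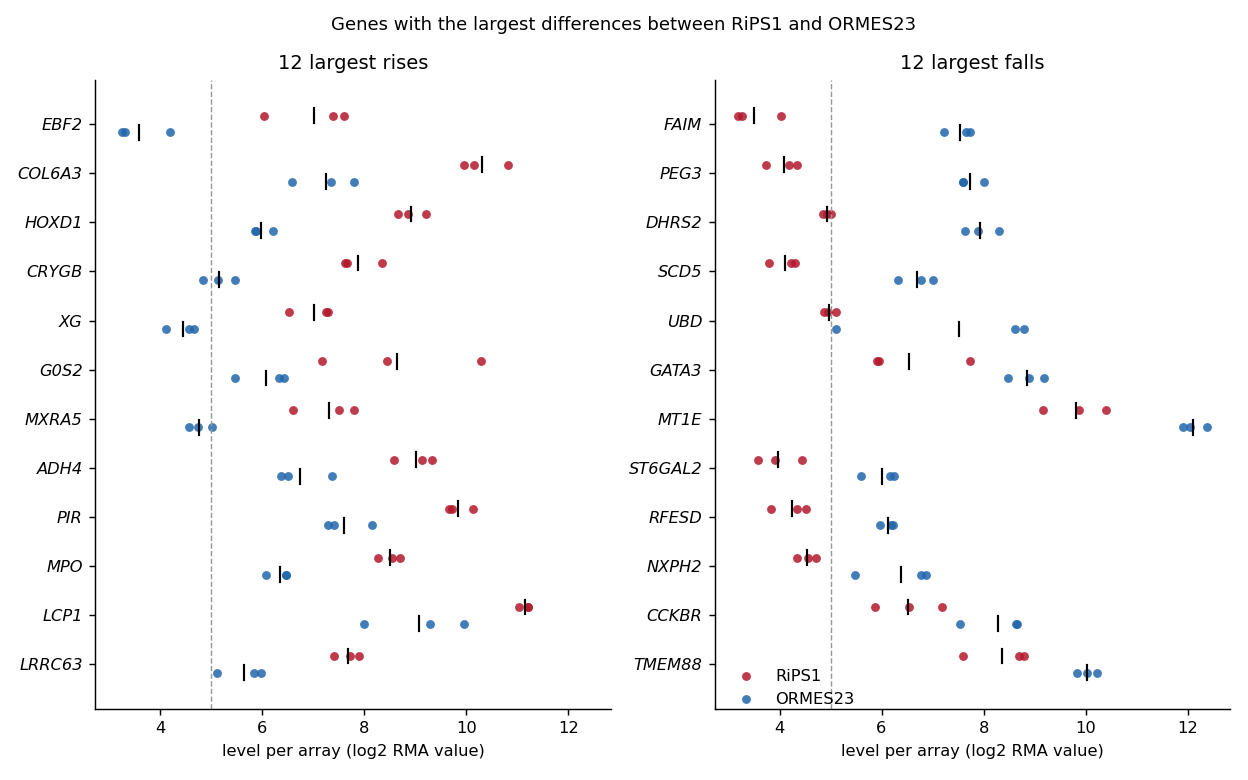
Level on each array (points, log2 RMA values) of the 12 genes with the largest rise (left panel) and the 12 with the largest fall (right panel), with RiPS1 (red) above ORMES23 (blue) in each row; black bars are line means and the dashed line marks log2 5. The 3 arrays of each line are separate for every gene shown, while UBD in ORMES23 A and G0S2 in RiPS1 B lie near the other line.

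The other pluripotent lines gave a range against which each called gene could be placed. Of the 204 genes called higher, RiPS1 lay outside the range of the 4 other pluripotent line means while ORMES23 lay within it for 112, and the converse held for 9. Both lay outside it for 73 and both within it for 10. Of the 62 called lower, these counts were 23, 10, 23 and 6. Over all 10426 genes they were 2825, 1407, 2126 and 4068.

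The genes higher in RiPS1 were not spread evenly over the genome. Genes were put in order along each chromosome (positions from the rhesus assembly T2T-MMU8v2.0) and divided into 196 runs of 50 genes, the last run of a chromosome taking the remainder. Among the 196 run medians, the 9 highest were the first 3 runs of X and the first 6 runs of chromosome 1. The X runs had median log2 differences of 0.79, 0.44 and 0.62, and the chromosome 1 runs of 0.31, 0.35, 0.21, 0.39, 0.47 and 0.32. The next highest was a run of chromosome 5 at 0.18, and the lowest, further along chromosome 1, was -0.16. The 2 segments were defined after these medians were seen, so they are described and not tested.

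**Figure D3:**
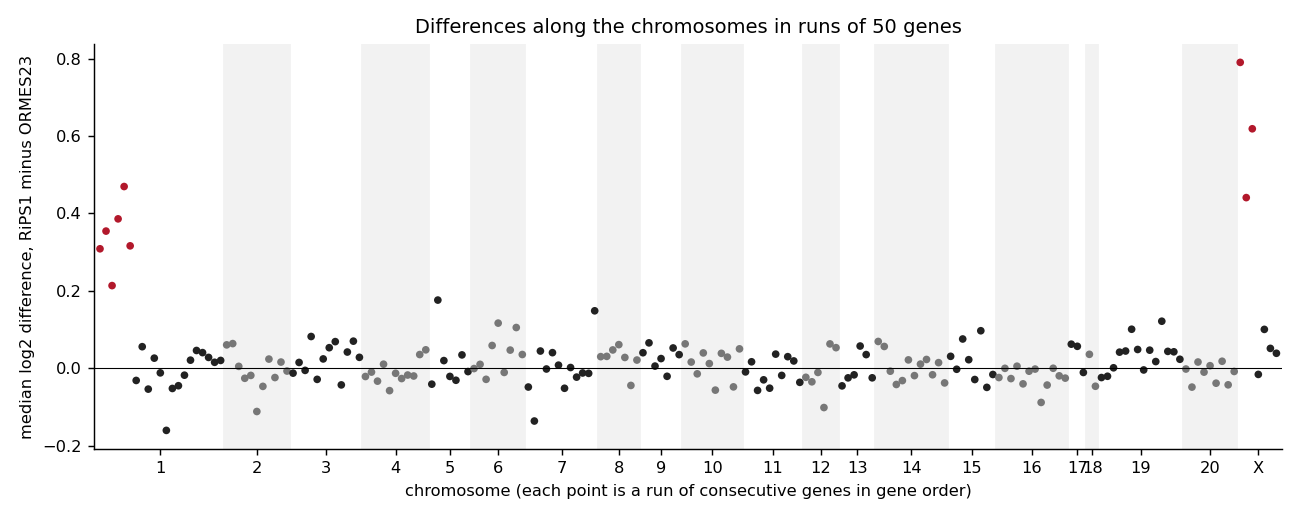
Median log2 difference, RiPS1 minus ORMES23, of each run of 50 consecutive genes along chromosomes 1 to 20 and X (196 points). The first 6 runs of chromosome 1 (0.21 to 0.47) and the first 3 runs of X (0.44 to 0.79), in red, lie above all others, the highest of which is 0.18.

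The chromosome 1 segment ran from PGBD2 to B4GALT3 and held 300 measured genes. Of these, 247 (82.3%) were higher in RiPS1 by any amount, 28 (9.33%) were called higher and none lower, and the median difference was log2 0.35, a 1.27-fold level. In the remaining 760 genes of chromosome 1, 6 (0.789%) were called higher and 5 lower, with a median of 0.00. The X segment ran from GTPBP6 to TRO and held 150 genes. There 127 (84.7%) were higher by any amount, 35 (23.3%) were called higher and 1 (GPR143, named for being the only one) lower, and the median was 0.67, a 1.59-fold level. In the remaining 245 X-linked genes, 9 (3.67%) were called higher and 2 lower, with a median of 0.04. On the other autosomes 121 of 8840 genes (1.37%) were called higher and 53 (0.6%) lower.

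Together the segments held 4.37% of the placed genes and 31.7% of those called higher. Outside them, 136 of 9845 genes (1.38%) were called higher and 60 (0.609%) lower. The median over the X chromosome as a whole was 0.18, against 0.01 on the autosomes.

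The segments were even from array to array and separated RiPS1 from every other pluripotent line. Each array was read against the mean of the 5 pluripotent lines other than RiPS1. That mean includes the 15 arrays of those lines and none of RiPS1, which by itself narrows the range of the 15. The median over the chromosome 1 segment was log2 0.35, 0.40 and 0.35 on RiPS1 A, B and C, against -0.02, 0.01 and 0.03 on ORMES23 A, B and C. Over all 15 other arrays it ran from -0.06 to 0.03. The median over the X segment was 0.65, 0.65 and 0.67 on RiPS1 A, B and C, against -0.07, -0.04 and -0.02 on ORMES23 A, B and C. Over the 15 other arrays, those of the female lines included, it ran from -0.07 to 0.06. ORMES23 A and RiPS1 C, the arrays that stood apart in other respects, did not do so here.

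**Figure D4:**
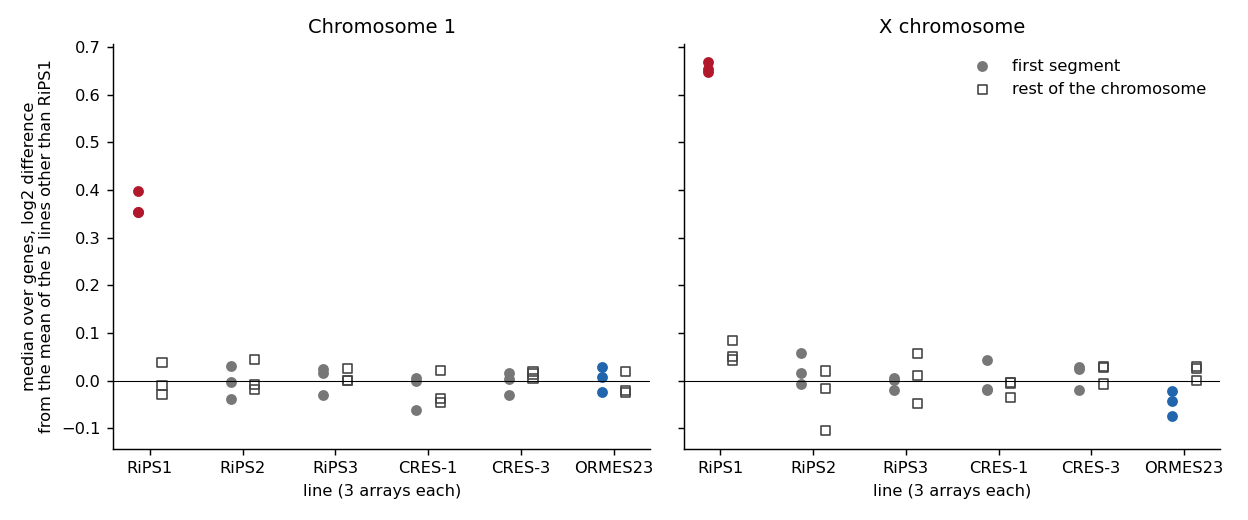
Median over genes of the log2 difference from the mean of the 5 pluripotent lines other than RiPS1, on each of 3 arrays per line, for the first segment of chromosome 1 (left) and of X (right) as filled circles and the rest of each chromosome as open squares. The 3 RiPS1 arrays lie at 0.35 to 0.40 and at 0.65 to 0.67 in the segments, while the 15 other arrays lie between -0.07 and 0.06.

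Gene by gene, all 3 RiPS1 arrays lay above all 15 arrays of the other pluripotent lines for 74 of the 300 genes of the chromosome 1 segment (24.7%) and 68 of the 150 of the X segment (45.3%). For the rest of chromosome 1 the share was 1.84%, for the rest of X 8.57% and for the other autosomes 3.01%. DNA copy number was not measured, and its part in these values was not tested.

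The 6 genes of smallest p in each segment are described next, picked after their values were seen. EPHX1, the microsomal epoxide hydrolase, read 10.11, 9.57 and 9.35 in RiPS1, against 7.77, 7.61 and 7.63 in ORMES23, a 4.01-fold rise (adjusted p = 1.45e-06). OPTC, a small leucine-rich proteoglycan, read 6.67, 6.49 and 6.78 in RiPS1, against 5.41, 5.26 and 5.18 in ORMES23, and rose 2.58-fold (adjusted p = 1.07e-06). The 4 other pluripotent lines and the fibroblasts all averaged 5.33 to 5.42 for OPTC. RCSD1, which binds the actin-capping protein, rose by log2 1.85 (SE 0.22), METTL13, a methyltransferase of a translation elongation factor, by 1.23 (SE 0.14), and the galectin LGALS8 by 1.13 (SE 0.14). METTL13 was called on 1 of its 3 passing probe sets, with another at -0.21, and its difference over the mean of the 3 was 0.56, which is not called. LGALS8 was called on 2 of 5, and its call was also lost with the mean of probe sets. RAB4A, a GTPase of endosome recycling, differed by 0.85 (SE 0.11, adjusted p = 7.71e-05) and stayed under the 2-fold limit.

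In the X segment, CCDC22, part of an endosomal sorting complex, read 8.03, 8.04 and 8.00 in RiPS1, against 6.67, 6.61 and 6.64 in ORMES23. Every other line, male or female, averaged between 6.56 and 6.78. It rose 2.61-fold (log2 1.38, SE 0.11, adjusted p = 6.12e-07), on 1 of 2 passing probe sets, with the other at 0.93. ACOT9, a mitochondrial acyl-CoA thioesterase, rose 4.02-fold, with 9.54, 9.24 and 9.59 in RiPS1 against 6.99, 7.50 and 7.87 in ORMES23. CFP, the complement regulator properdin, read 7.26, 7.04 and 6.62 in RiPS1, against 5.02, 5.43 and 5.09 in ORMES23, a 3.48-fold rise. MBTPS2, the site-2 protease that releases membrane-bound transcription factors, rose by log2 1.71 (SE 0.18, called on 1 of 2 probe sets, the other at 0.45) and MAGED2 by 1.02 (SE 0.11, called on 2 of 3). The call of MAGED2 was lost without ORMES23 B or RiPS1 C, and with the mean of probe sets, where its difference was under 2-fold. From the list of the largest rises, PIR, an iron-binding nuclear protein, read 9.66, 10.13 and 9.73 in RiPS1, against 8.15, 7.40 and 7.29 in ORMES23, and rose 4.68-fold (adjusted p = 0.000173). MXRA5, a matrix-associated adhesion protein that the fibroblasts expressed at 10.34, was at least 4.94-fold higher in RiPS1.

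Genes that escape X inactivation had a high median, and so did the other genes of the X segment. Of 38 listed escape genes 27 were measured, and PNPLA4, TXLNG, CTPS2, CA5B and XG rose while none fell (5 of 27, beside 1.96% of all genes). CA5B and XG reached log2 5 on RiPS1 arrays alone, so they entered the count through the line in which they were high. The list median was log2 0.75, beside 0.01 over all genes tested, and 23 of the 27 lie in the X segment. XG, the Xg blood group antigen, read 7.29, 7.25 and 6.52 in RiPS1, against 4.67, 4.56 and 4.12 in ORMES23, at least 4.06-fold higher (adjusted p = 7.06e-07). The female lines RiPS2, RiPS3 and CRES-3 averaged 5.47, 6.64 and 6.01, between RiPS1 and ORMES23, while the male line CRES-1, at 4.54, was as low as ORMES23. TXLNG, a taxilin, read 10.48, 10.68 and 10.85 in RiPS1, against 9.30, 9.52 and 9.53 in ORMES23, and the 3 female lines at 10.14 to 10.50 came close to RiPS1.

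The 127 genes of the X segment that are not on the escape list had a median difference of log2 0.60, with 30 called higher and 1 lower. Set against the mean of the male lines CRES-1 and ORMES23, the median over the 23 escape genes was 0.74 in RiPS1, 0.47 in RiPS2, 0.29 in RiPS3 and 0.28 in CRES-3. Over the other 127 genes it was 0.64 in RiPS1, against -0.01 in RiPS2, -0.04 in RiPS3 and 0.02 in CRES-3. RiPS1 was thus high in both kinds of gene, and the 3 female lines in the escape genes alone; the difference between lines was not tested. XIST, the RNA that coats the inactive X, had no probe set with a single symbol in the annotation used and was not measured here.

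None of the 4 reprogramming factors was called. POU5F1 read 12.49, 12.55 and 12.39 in RiPS1, against 11.41, 12.21 and 12.19 in ORMES23. The RiPS1 arrays were higher, with ORMES23 A the lowest, and the difference of log2 0.54 (SE 0.26) had an adjusted p of 0.257. SOX2 differed by 0.02 (SE 0.19, adjusted p = 0.976), KLF4 by 0.02 (SE 0.36, adjusted p = 0.985) and MYC by 0.15 (SE 0.24, adjusted p = 0.804), and these 3 changed sign under other settings. Whether the probe sets also read the retroviral copies was not tested.

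The core pluripotency list held 23 measured genes of 45, and none was called in either direction (median log2 -0.03). Its mean level was 9.04, 9.02 and 9.17 on RiPS1 A, B and C, against 9.02, 9.12 and 9.06 on ORMES23 A, B and C, so that the lines overlapped. CD9, a tetraspanin of the cell surface, differed by 0.45 (SE 0.13, adjusted p = 0.0388) and stayed under the 2-fold limit. PRDM14 and TBX3, transcription factors of the pluripotency network, differed by 0.79 (SE 0.30) and -1.56 (SE 0.65, adjusted p = 0.169), and neither passed the test. TBX3 read 5.18, 4.49 and 5.82 in RiPS1, against 6.96, 6.92 and 6.29 in ORMES23, without overlap. NANOG, named after its values were seen, differed by -0.28 (SE 0.26, adjusted p = 0.622), but its probe set read highest in the fibroblasts (9.96). The pluripotency marker ZFP42, which did not pass the level filter, read 4.53, 4.03 and 3.75 in RiPS1, against 7.49, 4.44 and 5.82 in ORMES23. Among the 10 marker genes set for pluripotent cells 7 had a probe set with a single symbol. Their mean was 10.23 ± 0.05 in RiPS1 and 10.53 ± 0.10 in ORMES23 (SD, n = 3 each). Most of that gap came from ZFP42, which differed by -1.82, while the other 6 markers lay between -0.32 (DPPA4) and 0.54 (POU5F1).

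Among imprinted genes PEG3 stood alone. Of 10 measured paternally expressed genes it was the only one called, where 2.55% of all genes were called, and the other 9 lay between log2 -0.78 (MEST) and 0.50 (MAGEL2). PEG3 reached the level filter on ORMES23 arrays alone, so it entered this count through the line in which it was high. MEST, a hydrolase-like gene of embryonic tissue, read 10.35, 10.47 and 10.18 in RiPS1, against 11.15, 11.08 and 11.11 in ORMES23. The arrays were apart, but MEST varied more between the other lines, down to 8.47 in RiPS2, and its adjusted p was 0.384. PLAGL1, a zinc finger regulator of growth, differed by -0.76 (SE 0.39, adjusted p = 0.290), and NDN by -0.18 (SE 0.12, adjusted p = 0.470). None of the 13 measured maternally expressed genes was called, and 10 of them were higher in RiPS1 by any amount (median 0.32, beside 0.01 over all genes). The same held for 5435 of all 10426 genes. GRB10, an adaptor that restrains insulin receptor signalling, read 11.08, 10.42 and 10.88 in RiPS1, against 9.95, 10.06 and 10.09 in ORMES23, and differed by 0.76 (SE 0.16, adjusted p = 0.00714) under the 2-fold limit. PPP1R9A differed by 0.46 (SE 0.12, adjusted p = 0.0259).

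The genes next to PEG3 in the measured order of chromosome 19, ZNF71 and AURKC, differed by 0.05 and -0.14 and were not called.

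Of 11 measured HOX genes, HOXD1 and HOXD4 rose and none fell, where 1.96% of all genes rose and 0.595% fell. The list median was log2 0.14, beside 0.01 over all genes. HOXD4 read 5.87, 5.87 and 5.58 in RiPS1, against 4.67, 4.90 and 4.71 in ORMES23, which is at least 1.71-fold higher (log2 1.01, SE 0.15, adjusted p = 0.000374). HOXD4 reached log2 5 on RiPS1 arrays alone, so it entered the count through the line in which it was high. Its difference sits at the 2-fold limit, and the call was lost without ORMES23 A, without ORMES23 C, without RiPS1 A and without RiPS1 B. HOXD10 (0.78, SE 0.27, adjusted p = 0.0888) and HOXD9 (0.39, SE 0.12, adjusted p = 0.0506) lay without overlap above ORMES23 but did not pass. Arrays without overlap were found for 26.8% of all genes. In HOXD10, CRES-3 at 7.60 and RiPS3 at 7.39 were near RiPS1 at 7.63, while CRES-1 and RiPS2 averaged 6.99 and 6.48. In HOXD9, RiPS2 at 5.90 lay above RiPS1 at 5.74, and CRES-1, CRES-3 and RiPS3 averaged 5.60, 5.27 and 5.34. HOXD3 differed by -0.13, and the HOXA, HOXB and HOXC genes measured lay between -0.10 and 0.26.

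Of 31 measured fibroblast and mesenchymal genes, COL6A3, COL1A2, TIMP1, FBLN5 and LGALS1 were called higher and none lower, where 1.96% of all genes were called higher. The list median was log2 0.13, beside 0.01 over all genes. COL1A2, a chain of collagen I, read 11.45, 11.56 and 11.50 in RiPS1, against 9.23, 9.95 and 9.74 in ORMES23, a 3.63-fold rise (log2 1.86, SE 0.54, adjusted p = 0.0430). CRES-1 averaged 10.98 and the other pluripotent lines 9.05 to 10.46, and leaving out any single array of either line took the call away (adjusted p up to 0.147). FBLN5, an elastic fibre protein, rose 2.13-fold (adjusted p = 0.0141), with the call lost without ORMES23 A or RiPS1 A. In FBLN5 CRES-1, with a mean of 7.47, was close to RiPS1 at 7.59, and the remaining pluripotent lines averaged 6.6 to 6.9. The galectin LGALS1 rose 2.11-fold (adjusted p = 0.00387), with the call lost without ORMES23 B or RiPS1 A. RiPS1 averaged 11.19 in LGALS1, below RiPS3 at 11.42 and CRES-3 at 11.34. CRES-1 averaged 10.97, and RiPS2, at 10.07, was as low as ORMES23. TIMP1, an inhibitor of matrix metalloproteinases, rose 2.11-fold (adjusted p = 0.00163), lies in the X segment, and lost its call without ORMES23 A or RiPS1 C and with array weights. It was called on 1 of its 3 passing probe sets, with the lowest at log2 0.06, and its difference over the mean of the 3 was 0.52, which is not called.

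The fibroblast markers LUM, FAP and PRRX1, which the skin fibroblasts expressed at 6.79, 9.21 and 8.69, stayed under log2 5 in both pluripotent lines. The mean of the 9 fibroblast markers that had a probe set with a single symbol was 7.08 ± 0.07 in RiPS1 and 6.85 ± 0.20 in ORMES23 (SD, n = 3 each). In such bulk RNA, fewer cells of a type and less RNA per cell cannot be told apart.

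Epithelial adhesion genes lay lower in RiPS1 without any call. Of 25 measured, 22 had a negative difference and 3 a positive one, where 5435 of all 10426 genes had a positive one. The median was log2 -0.42, beside 0.01 over all genes. The list mean was 7.97, 7.90 and 7.89 on RiPS1 A, B and C, against 8.09, 8.38 and 8.36 on ORMES23 A, B and C, so each RiPS1 array lay below each ORMES23 array. DSP, the desmosomal protein desmoplakin, read 9.40, 9.39 and 9.13 in RiPS1, against 10.53, 10.25 and 9.91 in ORMES23 (log2 -0.92, SE 0.17, adjusted p = 0.00210). The tight junction gene CLDN7 (-0.98, SE 0.21, adjusted p = 0.00642) and the keratin gene KRT19 (-0.88, SE 0.23, adjusted p = 0.0234) also passed on p and stayed under the 2-fold limit. EPCAM differed by -0.65 (SE 0.22, adjusted p = 0.0830).

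**Figure D5:**
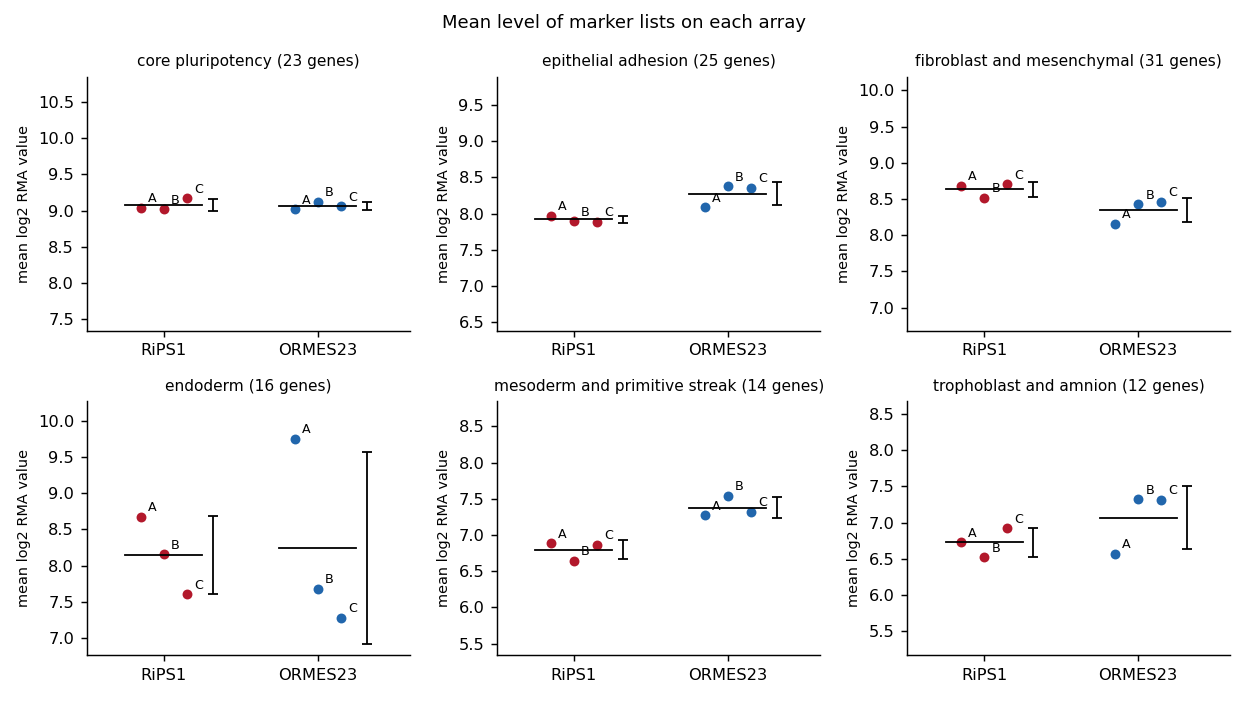
Mean log2 RMA value of the measured genes of 6 lists on each array (points, lettered A to C) in RiPS1 (red) and ORMES23 (blue), with the line mean (bar) and SD (whisker); each panel spans the same range of log2. The mesoderm and epithelial lists lie lower on all RiPS1 arrays, while the endoderm list is highest on ORMES23 A (9.75) and lowest on ORMES23 C (7.28).

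Of 12 measured trophoblast and amnion genes, GATA3 fell and none rose, where 0.595% of all genes fell, and the list median was log2 -0.23. GATA3, a transcription factor of these tissues, read 5.95, 5.91 and 7.74 in RiPS1, against 8.48, 9.18 and 8.89 in ORMES23. RiPS1 C lay between RiPS1 A and B and the ORMES23 arrays. The 4.99-fold fall (log2 -2.32, SE 0.69, adjusted p = 0.0472) lost its call without any single array other than RiPS1 C. Among the other genes of the list, TFAP2A differed by -0.90 (SE 0.26, adjusted p = 0.0423) under the 2-fold limit, VTCN1 by 0.71 (SE 0.25) and KRT7 by 0.97 (SE 0.37).

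None of 14 mesoderm and primitive streak genes was called, 12 of them were lower in RiPS1 by any amount, and the median was -0.66. Over all 10426 genes the median was 0.01, and 5435 were higher in RiPS1 by any amount. The list mean was 6.89, 6.65 and 6.87 on RiPS1 A, B and C, against 7.27, 7.54 and 7.33 on ORMES23 A, B and C. BMP4, a ligand that drives mesoderm and amnion, read 8.37, 7.78 and 8.76 in RiPS1, against 7.91, 10.56 and 10.62 in ORMES23 (-1.40, SE 0.48, adjusted p = 0.0902). ORMES23 A was low in BMP4, and so it was in its target MSX2, with 6.72, 6.52 and 8.14 in RiPS1 against 6.87, 9.40 and 9.40 in ORMES23 (adjusted p = 0.218). The same arrays were high for the mesoderm gene HAND1 and the neural gene PAX6, which did not pass the level filter. HAND1 read 4.68, 4.20 and 4.41 in RiPS1 against 4.65, 6.86 and 6.34 in ORMES23, and PAX6 read 3.66, 3.45 and 4.03 in RiPS1 against 3.18, 6.66 and 6.94 in ORMES23.

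None of 16 endoderm genes was called, with a median of -0.21. The list mean was 8.67, 8.16 and 7.60 on RiPS1 A, B and C, against 9.75, 7.68 and 7.28 on ORMES23 A, B and C. The spread between the arrays of each line exceeded the difference between the lines. AFP, alpha-fetoprotein, differed by -0.65 (SE 0.16, adjusted p = 0.0191) under the 2-fold limit. Its 3 passing probe sets ran from -0.65 to 0.31, and the one used read 6.97 in the fibroblasts, near RiPS1 at 7.16. FOXA1, a pioneer factor of endoderm, read 5.22, 4.41 and 4.70 in RiPS1, against 7.22, 5.82 and 5.42 in ORMES23 (adjusted p = 0.0595).

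Among 16 genes of MHC class I and antigen processing, MAMU-AG and MAMU-A were called higher and none lower, where 1.96% of all genes were called higher, and their other probe sets did not follow. The list median was 0.11, beside 0.01 over all genes. MAMU-AG, a nonclassical class I gene of the macaque placenta, read 9.29, 9.77 and 9.44 in RiPS1, against 7.92, 7.83 and 7.53 in ORMES23 (log2 1.74, SE 0.21, adjusted p = 5.40e-05). Its dimmer probe set differed by -0.66 (adjusted p = 0.231). On the brighter one CRES-3, RiPS2 and RiPS3 averaged 11.97, 11.01 and 12.06, all above RiPS1, while CRES-1 averaged 7.67, near ORMES23. MAMU-A, a classical class I gene that presents peptides to T cells, read 8.41, 8.29 and 8.24 in RiPS1, against 7.27, 7.36 and 7.29 in ORMES23 (1.01, SE 0.15, adjusted p = 0.000532). That call, at the 2-fold limit, was lost without ORMES23 A, without ORMES23 C and without RiPS1 A. On the same probe set CRES-3, RiPS2 and RiPS3 averaged 9.54, 8.72 and 9.92, again above RiPS1, and CRES-1 averaged 7.19. The other MAMU-A probe set read 3.25, 4.17 and 3.66 in RiPS1, against 8.10, 7.56 and 7.11 in ORMES23. That other probe set was itself called lower (-3.90, SE 0.26, adjusted p = 7.72e-08). Probe sets of this family can bind several near-identical copies, and the 2 animals may carry different alleles; neither was tested.

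Of 17 interferon-induced genes, IFIT3 and ISG15 rose and UBD fell, where 1.96% of all genes rose and 0.595% fell. The list median was 0.11, beside 0.01 over all genes. IFIT3, an antiviral RNA-binding protein, read 6.72, 7.18 and 6.56 in RiPS1, against 5.17, 5.52 and 4.97 in ORMES23, a 3.03-fold rise (adjusted p = 0.00178). ISG15, a ubiquitin-like modifier, read 9.24, 9.29 and 8.89 in RiPS1, against 8.12, 8.02 and 8.09 in ORMES23, a 2.09-fold rise (adjusted p = 0.00508) that lost its call without RiPS1 B. GBP2 differed by 0.67 (SE 0.20, adjusted p = 0.0442), under the 2-fold limit.

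In signalling pathways few genes were called. Of 27 activin, nodal and TGF-beta genes, the coreceptor TGFBR3 (log2 -1.23, SE 0.37, adjusted p = 0.0474) and LTBP1, which binds latent TGF-beta (-1.04, SE 0.27, adjusted p = 0.0241, called on 1 of 2 probe sets), fell, where 0.595% of all genes fell. TGFBR3 read 7.29, 7.22 and 7.91 in RiPS1, against 8.28, 8.86 and 8.98 in ORMES23. Both calls were lost without ORMES23 B, without ORMES23 C and without RiPS1 B, that of TGFBR3 also without RiPS1 A and that of LTBP1 also without RiPS1 C and with the mean of probe sets. The activin and BMP receptor ACVR1 differed by 0.65 (SE 0.17, adjusted p = 0.0235), and the signal transducer SMAD3 by 0.94 (SE 0.29, adjusted p = 0.0595). Of 20 FGF pathway genes, FGF12, an intracellular FGF homologue, fell 2.15-fold, with 8.37, 8.56 and 8.33 in RiPS1 against 9.44, 9.48 and 9.67 in ORMES23 (adjusted p = 0.00491), called on 2 of 3 probe sets and lost with their mean. The FGF inhibitor IL17RD differed by 0.73 (SE 0.20, adjusted p = 0.0294).

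None of 13 genes of DNA methylation and demethylation was called. DNMT1, the maintenance methyltransferase, read 7.01, 7.07 and 6.28 in RiPS1, against 5.66, 5.97 and 5.75 in ORMES23, and its difference of 0.99 (SE 0.20, adjusted p = 0.00532) fell just short of 2-fold. ZBTB33, a reader of methylated DNA, differed by 1.31 (SE 0.42, adjusted p = 0.0662).

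None of 23 immediate early and stress genes was called, with a median of -0.11. FOS read 6.59, 6.36 and 7.85 in RiPS1, against 10.72, 8.30 and 8.76 in ORMES23. The arrays did not overlap, ORMES23 A was the highest, and the difference of -2.33 (SE 0.75) had an adjusted p of 0.0689. The chaperone HSPH1 differed by -0.85 (SE 0.21, adjusted p = 0.0154), under the 2-fold limit. TRIB3, a stress-induced pseudokinase, read 10.14, 7.33 and 9.99 in RiPS1, against 6.80, 7.91 and 7.85 in ORMES23, with RiPS1 B among the ORMES23 arrays (adjusted p = 0.204).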

How the data were processed

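The deposited values were log2 summaries of each probe set, made by the authors from Affymetrix arrays with RMA, per the labels and the submitters' processing notes; its version is not given in the sources used here. They were used without further normalization. One linear model with a mean per line was fitted to all 21 arrays of the 7 lines (14 residual degrees of freedom) with limma 3.58.1 in R 4.3.3 and its moderated test, two-sided. Benjamini-Hochberg adjustment ran over the 16882 probe sets tested; the code was tested on simulated data. A probe set was called at an adjusted p under 0.05 with at least a 2-fold change, and only called genes are said to have risen or fallen. A gene was read from its brightest passing probe set. Differences are RiPS1 minus ORMES23, with the model's standard error (SE); SD is over the 3 arrays of a line. Named were the 12 largest rises and 12 largest falls whose arrays did not overlap (LOC symbols left out), up to 4 genes of smallest p per described list, further called list members, and the reprogramming factors. Members and the 25 gene lists (702 genes, 404 measured) were chosen with earlier results of these data known. Gene order came from NCBI's table for T2T-MMU8v2.0, matched by gene identifier for 16680 probe sets. The number of arrays limits the precision.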

Additional observations from a re-analysis of the deposited data

How the results depend on the processing

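More probe sets were called higher than lower under every alternative run. Against 288 higher and 98 lower, the counts were 458 and 185 when probe sets without a symbol were added, 170 and 55 with the mean of a gene's probe sets, 206 and 62 with the brightest probe set, 206 and 62 at an adjusted p under 0.01, 438 and 286 with array weights (whose estimation did not converge fully), and 460 and 270 without ORMES23 A and RiPS1 C, an alternative chosen after seeing the data. Leaving out single arrays gave 217 to 343 higher and 71 to 181 lower. The letters A, B and C did not pair the arrays (same-letter correlations of deviations 0.22, -0.21 and 0.43), and the replicate block gave 290 and 98. The chromosome 1 segment median of 0.35 was 0.43 with the filter at log2 6, 0.30 after median centring, 0.32 without both arrays and 0.30 to 0.36 without single arrays. The X segment median of 0.67 was 0.75, 0.62, 0.65 and 0.63 to 0.68 under these settings and 0.57 with the mean of probe sets. The X minus autosome median of 0.17 was 0.16 with the mean of probe sets and 0.14 to 0.18 without single arrays. Of 51 called named genes, 28 kept their call in all of their up to 18 alternatives and 23 lost it in at least 1. Signs turned only in MYC (-0.028 with array weights, -0.041 to 0.288 without single arrays, -0.16 without both arrays), SOX2 (-0.0277 after centring, -0.16 with weights, -0.14 to 0.147 without single arrays, -0.19 without both), KLF4 (-0.0228 after centring, -0.10 to 0.164 without single arrays), HHEX (-0.21 with the mean of probe sets) and MAMU-A (-1.45 with the mean of probe sets). Where a call changed, the cause was not tested.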

Other observations

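Lists of cell state that are not described above held few calls. None of 25 cell cycle genes was called, 6 were higher in RiPS1 by any amount, and the median difference was log2 -0.10. None of 20 glycolysis genes was called, 16 were higher in RiPS1, and the median was 0.16. Of all 10426 genes, 5435 were higher in RiPS1 by any amount, with a median of 0.01. None of 29 WNT pathway genes (median -0.20), 15 cell cycle inhibitors and p53 targets (0.18), 13 genes of insulin-like growth factor signalling (0.05), 9 neural ectoderm genes (-0.11) or 9 regulators of X inactivation (-0.12) was called. Of 6 measured germline and meiosis genes MEIOB, a gene of meiotic recombination, was called higher, where 1.96% of all genes were called higher. MEIOB read 5.80, 5.80 and 5.63 in RiPS1, against 4.46, 4.23 and 4.28 in ORMES23 (limma adjusted p = 0.00483). It reached log2 5 on RiPS1 arrays alone, so it entered the count through the line in which it was high. CRES-3 was higher still, with a mean of 6.63.

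Some genes differed on 1 probe set and not on another. Of 330 genes with a called probe set, 64 were not called on their brightest one, and 11 of the 266 called genes had a passing probe set of the opposite sign. The genes that follow were picked after their values were seen. CEP68, a centrosome protein, read 3.60, 3.77 and 3.91 in RiPS1, against 6.21, 6.71 and 6.80 in ORMES23, on a probe set that was called lower (log2 -2.81, SE 0.18). Its other probe set differed by -0.02 (SE 0.15). The annexin ANXA4 read 6.61, 6.75 and 6.37 in RiPS1, against 4.32, 4.09 and 3.71 in ORMES23, on a probe set called higher (2.54, SE 0.16), while its brighter probe set differed by -0.66 (SE 0.25). OPA1, a GTPase of mitochondrial fusion, differed by 2.14 (SE 0.14) on 1 probe set and by 0.20 to 0.29 on its 3 others. Differences in transcript use or in sequence under the probes between the 2 animals were not tested.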
